A study of Mus musculus with 12 samples.

Results

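The comparison described here is between wild-type (WT) F9 cells and F9 cells labelled RARaKO, for loss of Rara, the gene of retinoic acid receptor alpha, both given all-trans retinoic acid (atRA). Its members are the 6 arrays titled as atRA with genotype RARaKO or WT, 3 per genotype, out of 12 arrays in all. The genes described lie outside a run of neighbouring genes on chromosome 4, from Tusc1 to Akirin1, which differed between the genotypes as a block and is left aside. F9 is a mouse teratocarcinoma line whose cells resemble those of the early embryo. Every group was also kept for 8 h in 1 µg/ml cycloheximide, which blocks protein synthesis, added 30 min before the ligand. The RARaKO atRA and WT atRA groups received 1 µM atRA for 7.5 h, and the RARaKO vehicle and WT vehicle groups, used here only for reference, received ethanol at 0.1%. Each group held 3 arrays, numbered by set as 2, 3 and 4. The labels do not say how Rara was disrupted, from how many clones the RARaKO cells came, or whether sets are separate cultures, so the spread between arrays that underlies the p-values may be only technical. With RARaKO the only knockout label and no rescue, the effect of the targeted gene and other differences between the cells cannot be told apart.

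Retinoic acid enters the nucleus and binds the receptors encoded by Rara, Rarb and Rarg, which sit on DNA as heterodimers with the retinoid X receptors. Without ligand these dimers recruit co-repressors, and with ligand they recruit co-activators. Known direct targets include Rarb itself, Cyp26a1, whose enzyme breaks retinoic acid down, the 3′ Hox genes and Stra8. In F9 cells retinoic acid starts differentiation towards extraembryonic endoderm. Cycloheximide blocks the making of new proteins, which limits responses that need one.

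The receptor dimer is best known for binding a direct repeat of a short half-site with a spacer of 5 bases, called DR5. The start regions of Rarb and Cyp26a1 carry such a repeat, and both are shown because these genes are standard readouts of the ligand and their values are given among the results. The sequences are the RefSeq promoters of build GRCm38.p6, at chr14:16575481-16575561 on the minus strand and chr19:37697744-37697824 on the plus strand, printed 5′ to 3′ on the strand of the gene with the repeat in capitals. In Rarb the repeat lies 53 to 37 bases before the start site, and in Cyp26a1 it lies on the other strand, 32 to 16 bases before the start site.
Rarb: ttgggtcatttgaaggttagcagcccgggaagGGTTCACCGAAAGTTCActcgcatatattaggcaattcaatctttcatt
Cyp26a1: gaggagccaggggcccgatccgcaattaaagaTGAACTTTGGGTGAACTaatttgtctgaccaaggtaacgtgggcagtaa

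Values are expression per probe set on a scale taken as log2, each probe set being centred on its median over the 12 arrays. Levels are therefore not in the data, values of different genes cannot be set against each other, and only differences between arrays are meaningful. A difference is RARaKO minus WT, and the error after ± is its standard error from the limma fit unless an SD is named. A gene is called when its Benjamini-Hochberg adjusted p in limma, over 37600 probe sets, is under 0.05. The array of RARaKO atRA set 2 stood apart: its values had an SD of 0.201 over probe sets, against 0.128 to 0.162 on the other 11 arrays. The labelled cell type could be checked only coarsely, through a class of level recovered from the spacing of the numbers. All 6 markers of undifferentiated F9 cells (Pou5f1, Sox2, Nanog, Utf1, Fgf4 and Tdgf1) fell in the class of at least 8 on the log2 scale. So did 7 of 8 endoderm markers, and 37.2% of all probe sets. Each gene was read by its probe set of highest class, which raises such counts. The check therefore does not tell the cell types apart. None of these 14 markers was called in atRA by limma (1 at an unadjusted p under 0.05, Pou5f1, at -0.19 ± 0.05).

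The targeted gene was read first, by its single probe set. In the arrays labelled RARaKO the atRA values of Rara were 0.26, 0.05 and 0.29 in sets 2, 3 and 4, and in WT they were -0.26, -0.05 and -0.17. The RARaKO values were all higher than the WT values, opposite in direction to a loss of the transcript. The difference was 0.36 ± 0.09 (limma, adjusted p = 0.0488), and it lost its call without any one of 4 of the 6 atRA arrays (sets 2 and 4 of each genotype). In vehicle it was 0.90 ± 0.09 (limma, adjusted p = 1.50e-04). Whether this probe set reads the disrupted part of the gene is not given in the sources used here. The genotype is therefore that of the labels throughout, and "RARaKO" below means the arrays so labelled.

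Outside the chromosome 4 run, 446 of 16289 genes were called between RARaKO and WT in atRA, which is 2.74% of the genes. Of these, 159 were higher in RARaKO (0.976%) and 287 were lower (1.76%). In all 446 the 3 RARaKO arrays lay apart from the 3 WT arrays, while 20.7% of all genes did so. The called differences had a median size of 0.41 and ranged from 0.22 to 3.07. A difference of at least 1, a 2-fold change, was reached by 8 higher and 9 lower genes. Leaving out RARaKO atRA set 2 gave 284 called genes, of which 239 were among the 446. The counts were 259 without WT atRA set 2 and 177 without WT atRA set 4, and 143 of the 446 kept their call without each of the 6 atRA arrays in turn. With the set number added to the fit as a block, 899 genes were called, 339 higher and 560 lower. The calls given here are from the fit without that block. In the run itself 128 of 220 genes were higher and none was lower in limma, with 155 and 2 at an unadjusted p under 0.05.

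The genes that were most strongly raised in RARaKO cells with ligand included a nutrient transporter, a testis form of a ribosomal protein and genes of nerve and glial cells. Slc38a4 encodes an amino acid transporter and is expressed from the paternal allele. Its values were 1.21, 1.63 and 1.47 in RARaKO atRA and -1.69, -2.0 and -1.21 in WT atRA. The groups were far apart, and the difference was 3.07 ± 0.16, or 8.4-fold (limma, adjusted p = 6.76e-07). Rpl39l, a paralog of a ribosomal protein gene that is typical of testis, had values of 1.13, 0.99 and 1.10 in RARaKO against -1.28, -1.21 and -0.99 in WT. The groups were again far apart, with a difference of 2.23 ± 0.11, or 4.69-fold (limma, adjusted p = 3.05e-07). Stmn2, a regulator of microtubules in growing neurons, read 1.49, 1.49 and 0.68 in RARaKO and -0.91, -0.68 and -0.80 in WT. Set 4 of RARaKO was the lowest of its group, yet still above every WT array, and the difference was 2.01 ± 0.23 (limma, adjusted p = 3.80e-04). In bulk RNA such as this, a change in the number of cells of a type and a change in RNA per cell cannot be told apart.

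Among the next largest increases were Mobp, a myelin protein gene, by 1.39 ± 0.18, and Sema3e, a secreted guidance ligand, by 1.18 ± 0.13. Of the 5 Mobp probe sets 4 were called higher, as were all 4 for Sema3e. Sfmbt2, an imprinted gene for a Polycomb-group protein, read 0.66, 0.57 and 0.16 in RARaKO and -0.57, -1.04 and -0.44 in WT. Its groups did not overlap, the difference was 1.15 ± 0.17 (limma, adjusted p = 0.00245), and its neighbour Gm13261 was higher by 1.02 ± 0.10. A second Sfmbt2 probe set was not called, at 0.24 ± 0.09. Cstf2t, the testis form of an mRNA 3′ end processing factor, was higher by 0.98 ± 0.08. The remaining increases named by the rule were Gm17546 (1.19), Rhox6 (0.89), Nlrp9b (0.88), Rex2 (0.87) and Rhox9 (0.85), together with Bod1l (0.99) and Zfp820 (0.87). Bod1l was called without only 3 and Zfp820 without only 2 of the 6 atRA arrays, and neither was called without RARaKO atRA set 2 (limma, adjusted p = 0.0852 and 0.0542). The other Bod1l probe sets (0.21 and 0.09) and a second Zfp820 probe set (0.27) were not called.

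The largest decrease was in Gab1, an adaptor protein that carries signals from growth factor receptors to ERK and PI3 kinase. Gab1 values were -1.08, -1.29 and -1.12 in RARaKO atRA and 1.17, 1.02 and 1.16 in WT atRA. This was the tightest of the large differences, -2.28 ± 0.07, or 4.86-fold lower (limma, adjusted p = 2.76e-09), and all 3 of its probe sets were called lower. Mest, an imprinted gene expressed from the paternal allele, read -1.27, -1.36 and -0.89 in RARaKO and 0.89, 0.96 and 0.96 in WT. The gap was close to 2 log2 units in every set, and the difference was -2.11 ± 0.11, or 4.32-fold lower (limma, adjusted p = 6.76e-07). Tex13b, an X-linked gene expressed in testis, had values of -0.80, -0.74 and -0.80 in RARaKO against 0.69, 0.79 and 0.81 in WT. Both of its probe sets were called, at -1.54 ± 0.08 for the one that stands for the gene (limma, adjusted p = 6.47e-07). Without RARaKO atRA set 2, Slc38a4, Rpl39l, Stmn2, Gab1, Mest and Tex13b were each still called (limma, largest adjusted p = 0.00241, for Stmn2).

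**Figure D1:**
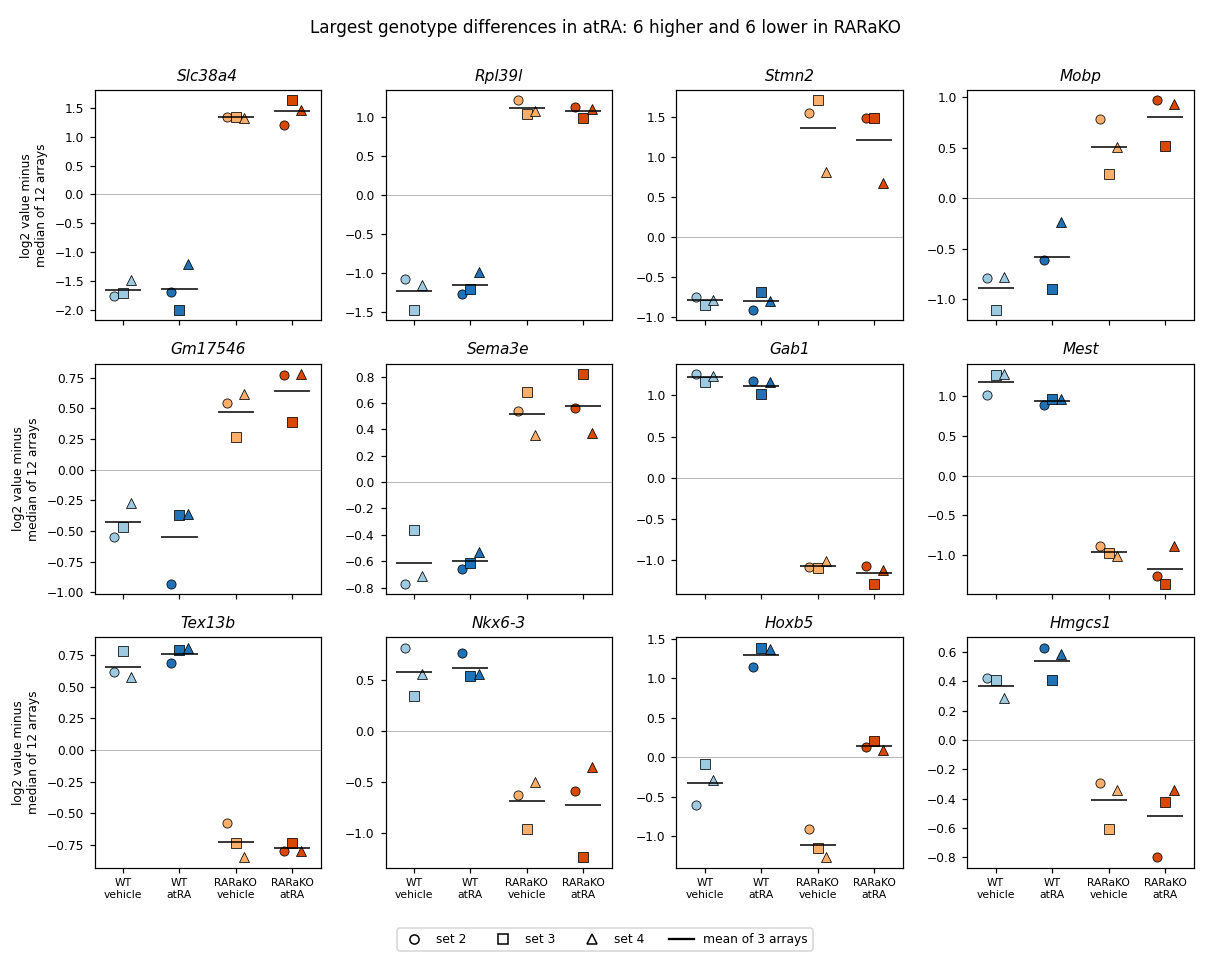
Values per array of the 6 largest increases and 6 largest decreases in atRA, with genotype and treatment on the horizontal axis and the log2 value relative to the probe set's median over 12 arrays on the vertical axis (scales differ between panels). Symbols mark the sets and bars the mean of 3 arrays; in every panel the 3 RARaKO atRA arrays lie apart from the 3 WT atRA arrays, from a mean difference of 3.07 in Slc38a4 to -2.28 in Gab1.

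Several other strong decreases were in genes for transcription factors. Nkx6-3, a homeobox gene, differed by -1.35 ± 0.20, with values of -0.59, -1.24 and -0.35 in RARaKO against 0.77, 0.54 and 0.56 in WT. The RARaKO arrays were spread over nearly a full log2 unit, but none came near WT (limma, adjusted p = 0.00235). Cux1, a cut-class homeobox gene, differed by -1.01 ± 0.08, yet its 9 probe sets disagreed. For Cux1, 2 probe sets were called lower and 1 was called higher, at 0.48 ± 0.12, so no direction holds for the gene as a whole. Tbx15, a T-box factor, differed by -0.96 ± 0.14, and Irx2, an Iroquois homeobox gene, by -0.43 ± 0.08. A second Tbx15 probe set was not called, at -0.39. Of 28 measured homeobox and fate transcription factors outside the Hox clusters, 5 were lower and none was higher (17.9% called, against 2.74% of all genes). The 5 were Nkx6-3, Cux1, Tbx15, Irx2 and Meis2, with Cux1 counted by the probe set that stands for it. Meis2 kept its call in only 1 of the 6 omissions of an atRA array. Like the other lists below, this list was drawn up with earlier results of these data known, so its share is not independent evidence. At an unadjusted limma p under 0.05, 7 of that list were lower and 2 were higher. The median difference of that list was -0.05, against -0.01 over all genes outside the run.

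The remaining large decreases named by the rule lay in genes of diverse function. Ildr1, a tricellular junction protein gene, differed by -1.02 ± 0.09, and Mmp11, a matrix metalloproteinase gene, by -0.97 ± 0.08. Npr3, the clearance receptor for natriuretic peptides, differed by -0.94 ± 0.11. Ttyh3 (-0.97), Zfp365 (-0.89) and Cstdc1 (-0.84) complete that set, and all 6 were called without each atRA array in turn. A second Zfp365 probe set was not called, at -0.09.

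Hox genes, which give cells their position along the body axis and respond to retinoic acid from the 3′ end of each cluster, were lower in RARaKO where they were called. Of 30 measured Hox genes 5 were lower (Hoxb5, Hoxb1, Hoxb13, Hoxb2 and Hoxc10) and none was higher, so 16.7% of the list was called, against 2.74% of all genes. At an unadjusted limma p under 0.05 the counts were 13 lower and 0 higher. The list's median was -0.12, and 6 of 30 differences were above 0. Hoxb5 read 0.13, 0.20 and 0.09 in RARaKO atRA and 1.15, 1.39 and 1.37 in WT atRA, a difference of -1.17 ± 0.13 (limma, adjusted p = 2.75e-04). Hoxb1 read 0.14, -0.02 and 0.02 in RARaKO atRA and 0.86, 1.29 and 1.06 in WT atRA, a difference of -1.02 ± 0.11 (limma, adjusted p = 3.58e-04). Every RARaKO atRA array was thus well under every WT atRA array for both genes. In vehicle the RARaKO means were -1.11 for Hoxb5 and -0.69 for Hoxb1, below every RARaKO array with atRA, and the WT means were -0.33 and -0.04, below every WT array with atRA.

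Hoxb2, the neighbour of Hoxb1, differed by -0.63 ± 0.10, with RARaKO values of 0.36, 0.19 and 0.02 under WT values of 0.85, 0.89 and 0.73 (limma, adjusted p = 0.00326). Hoxb13, at the far 5′ end of the same cluster, differed by -0.84 ± 0.15. Hoxc10, at -0.45 ± 0.10, lost its call when any one of the 6 atRA arrays was left out. Hoxb3, Hoxb4, Hoxb6, Hoxb7 and Hoxb9 lie between Hoxb13 and Hoxb2 in the cluster and were not called, with differences from -0.22 to 0.10. In the A cluster Hoxa2 (-0.54), Hoxa5 (-0.52) and Hoxa4 (-0.42) were not called. In vehicle the differences of Hoxb5, Hoxb1, Hoxb2 and Hoxb13 were -0.78, -0.65, -0.32 and -0.49, each smaller in size than in atRA. The tests of that change gave unadjusted limma p-values of 0.0476, 0.0388, 0.0421 and 0.109, and none passed after adjustment over all probe sets.

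**Figure D2:**
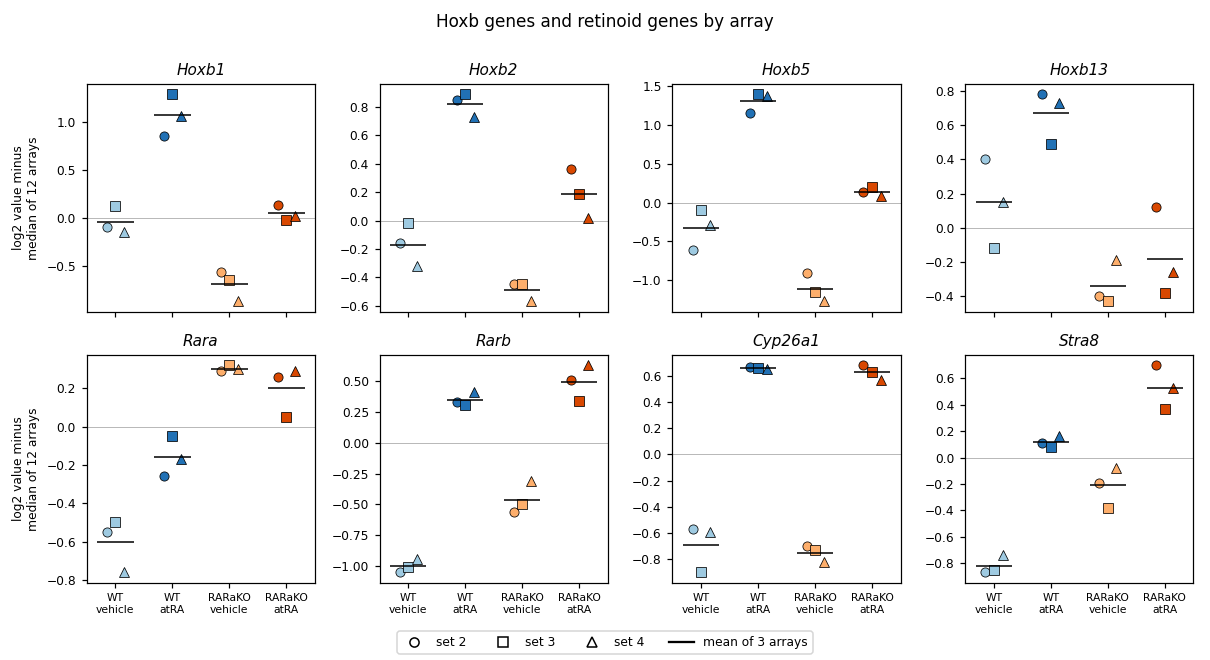
Values per array of 4 Hoxb genes, 2 receptor genes, Cyp26a1 and Stra8 in the 4 groups, as log2 relative to the probe set's median over 12 arrays, with sets as symbols and means of 3 arrays as bars. In atRA the RARaKO arrays lie below WT for the 4 Hoxb genes, above WT for Rara and Stra8, and overlap WT for Rarb and Cyp26a1.

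Of 29 measured genes listed as retinoic acid targets, direct or not, 1 was higher (Stra8) and 2 were lower (Hoxb1 and Meis2, a homeobox cofactor of Hox proteins). That is 10.3% of the list, against 2.74% of all genes, with a list median of -0.04. At an unadjusted limma p under 0.05, 4 were higher and 6 were lower. Cyp26a1, whose DR5 repeat is printed above, read 0.68, 0.63 and 0.57 in RARaKO and 0.67, 0.66 and 0.65 in WT. The groups overlapped and the difference was -0.04 ± 0.08 (limma, adjusted p = 0.871). Rarb, with its own DR5, read 0.51, 0.34 and 0.63 in RARaKO and 0.33, 0.31 and 0.41 in WT. These groups also overlapped, at a difference of 0.14 ± 0.09 (limma, adjusted p = 0.424), whereas in vehicle Rarb was higher in RARaKO by 0.54. The change of the Rarb difference between the conditions was not called over all probe sets.

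Stra8, which germ cells need to enter meiosis, read 0.70, 0.37 and 0.53 in RARaKO atRA and 0.11, 0.08 and 0.16 in WT atRA. RARaKO arrays were all higher, by 0.42 ± 0.09 (limma, adjusted p = 0.0295), and in vehicle the difference was 0.61 ± 0.09 (limma, adjusted p = 0.00327). The call in atRA was lost without any one of 5 of the 6 atRA arrays. Meis2 differed by -0.69 ± 0.16 and likewise kept its call in only 1 of the 6 omissions. No other target on the list was called, and the differences of those ranged from -0.42 for Hoxa4 to 0.30 for Foxa1, with Crabp2 (0.09) and Cdx1 (-0.02) nearer to 0.

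Of the nuclear receptors and co-regulators, 4 of 37 were called (10.8%, against 2.74% of all genes): Rara higher, and Rxrg, Nr5a1 and Nr6a1 lower. Rxrg, a retinoid X receptor, differed by -0.61 ± 0.12, with RARaKO values of -0.29, -0.18 and 0.17 against 0.56, 0.56 and 0.41 in WT. Set 4 showed the smallest gap, and the call was lost without RARaKO atRA set 2 (limma, adjusted p = 0.0566). Nr5a1, the steroidogenic factor SF-1, differed by -0.54 ± 0.08, and its neighbour Nr6a1, the germ cell nuclear factor that represses Pou5f1, by -0.41 ± 0.10. Nr6a1 kept its call in only 2 of the 6 omissions. A second Nr5a1 probe set was not called, at -0.13. Of the other Nr6a1 probe sets, those at -0.07 and 0.01 were not called and that at -0.48 was. Rarg, the other receptor gene strongly tied to F9 differentiation, was not called (-0.16 ± 0.07; limma, adjusted p = 0.256). In retinoid uptake and metabolism 2 of 27 genes were called. Dhrs4, a retinal reductase gene, differed by -0.42 ± 0.06, and Rdh12, a retinol dehydrogenase gene, by 0.51 ± 0.12, though Rdh12 kept its call in only 1 of the 6 omissions. A second Rdh12 probe set was not called, at 0.14.

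Genes of germ cells and meiosis were called more often upward. Of 49 measured, 8 were higher and 2 were lower, Dnd1 and Piwil2, a called share of 20.4% in which the increases outnumber the decreases, whereas over all genes 0.976% were higher and 1.76% lower. The list's median was 0.07, and without RARaKO atRA set 2 the counts were 4 higher and 1 lower. After Rpl39l, the increases were in Sohlh2, a germ cell transcription factor (0.63 ± 0.09), Syce1 (0.61 ± 0.09) and Tex12 (0.57 ± 0.08), both parts of the synaptonemal complex, Tex19.1, which restrains retrotransposons (0.58 ± 0.11), Rnf17 (0.57 ± 0.12), Sycp1 (0.43 ± 0.10) and Stra8. Of the 6 omissions of an atRA array, Sycp1 and Dnd1 kept their call in only 1, Rnf17 and Piwil2 in 2 and Tex19.1 in 4. Of the 4 Rnf17 probe sets 2 were called. Many defining germ cell genes were not called, with differences of -0.05 for Ddx4, 0.44 for Dazl, 0.12 for Dppa3 and -0.09 for Dmc1. Of the 4 measured Rhox genes, X-linked homeobox genes of reproductive tissue, 2 were higher: Rhox6 with RARaKO values of 0.40, 0.34 and 0.40 over WT values of -0.57, -0.52 and -0.45, and Rhox9 at 0.85 ± 0.13. The other two differed by 0.30 (Rhox13) and -0.20 (Rhox5) and were not called.

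Imprinted genes held the largest called differences in both directions, while the median of the list lay close to that of all genes. Of 55 measured, Slc38a4 and Sfmbt2 were higher and Gab1, Mest, Grb10 and Cd81 were lower, 10.9% of the list against 2.74% of all genes. The list's median was -0.04, and 23 of 55 differences were above 0. Grb10, a growth factor receptor adaptor, differed by -0.51 ± 0.08, and Cd81, a tetraspanin gene, by -0.30 ± 0.07. The other 2 Grb10 probe sets were not called, at -0.08 and -0.01, and Cd81 kept its call in only 1 of the 6 omissions. Other well-known imprinted genes were not called, with differences of -0.08 for Igf2, -0.08 for Peg10, 0.05 for Meg3, 0.14 for Igf2r and 0.30 for Peg3. The list was drawn up knowing that some of its members differed, and it is not independent evidence.

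Called genes of growth signalling and of the cell cycle were mostly lower, as were called genes as a whole (1.76% of all genes lower, 0.976% higher). In the FGF and ERK list 3 of 27 were lower (Gab1, the ERK-induced factor Etv4 at -0.52 ± 0.10, and the receptor Fgfr1 at -0.35 ± 0.08) and none was higher. That is 11.1% of the list, and at an unadjusted limma p under 0.05 it held 5 lower and 3 higher genes. A second Etv4 probe set (-0.24) and the other Fgfr1 probe sets (-0.24 and -0.30) were not called. The ERK feedback genes Dusp6 (-0.28), Spry2 (-0.20) and Spry4 (-0.05) were not called. Myc, the growth-promoting transcription factor, read -0.46, -0.38 and -0.56 in RARaKO and -0.04, 0.13 and -0.09 in WT. This was a difference of -0.47 ± 0.07 with no overlap (limma, adjusted p = 0.00362), and its neighbour Pvt1 was called lower too. Of 30 p53 targets and stress genes 3 were lower (10.0%, against 2.74% of all genes): Cdkn1a, the cell cycle inhibitor p21, at -0.50 ± 0.06, Perp at -0.45 ± 0.08 and Bbc3 at -0.35 ± 0.08. A second Cdkn1a probe set was at -0.03 and was not called, and Bbc3, like Fgfr1, kept its call in only 1 of the 6 omissions. Of 42 cell cycle genes (11.9% called) Rb1, Cdkn1a, Cdc25b and Ccne2 were lower and Aurkc, the meiotic Aurora kinase, was higher by 0.45 ± 0.09. Both brakes (Cdkn1a, Rb1) and drivers (Cdc25b, Ccne2) of the cycle are thus among the decreases, though a second Rb1 probe set was at 0.15 and was not called. Only 2 of these 4 decreases were called without RARaKO atRA set 2. At an unadjusted limma p under 0.05, 12 cell cycle genes were lower and 2 were higher. These counts were 7 and 1 for the p53 targets and stress genes, and 1751 and 1112 for all 16289 genes. The median of the cell cycle list was -0.08, and 8 of its 42 differences were above 0.

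**Figure D3:**
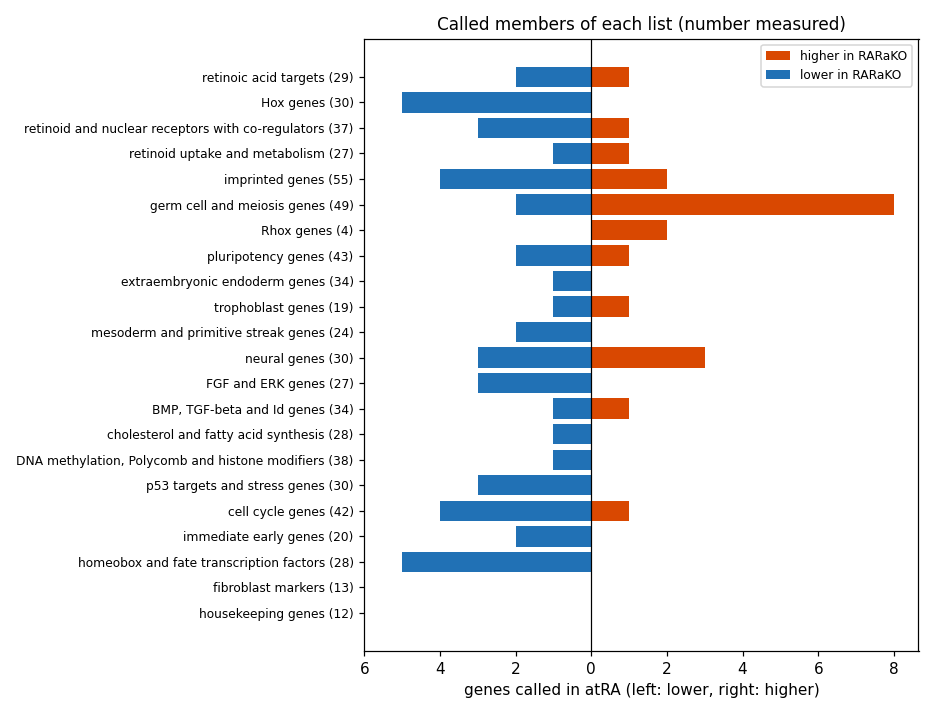
Number of genes of each list called lower (left) and higher (right) in RARaKO atRA, with the number measured outside the chromosome 4 run in brackets. The longest bar is that of the germ cell and meiosis genes, with 8 higher, and the Hox genes have 5 lower and none higher.

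Markers of differentiation stage and of other cell types were called at shares from 0.0% (fibroblast markers) and 2.94% (extraembryonic endoderm) to 20% (neural genes), against 2.74% of all genes. Of 43 pluripotency genes (6.98% called), Rex2 was higher and Myc and Lefty2, a Nodal inhibitor, were lower, with a list median of 0.06. The mean value of that list ranged from -0.11 to 0.07 over the RARaKO atRA arrays and from -0.13 to 0.01 over the WT atRA arrays. Among 34 genes of extraembryonic endoderm only Hhex was called, at -0.66 ± 0.11, and the list means ranged from -0.06 to 0.04 in RARaKO and from -0.15 to 0.09 in WT. Of 19 trophoblast genes (10.5% called) Sfmbt2 was higher and Gata3 lower (-0.57 ± 0.11), and of 24 mesoderm genes (8.33% called) Tbx15 and Mesp2 were lower. Mesp2 lost its call when any one of the 6 atRA arrays was left out, and Lefty2 kept its call in only 1 of the 6 omissions. The neural list was split: Stmn2, Mobp and Tubb3, a neuronal tubulin, were higher, and Nkx6-3, Neurod1 and Gap43 were lower, out of 30. Tubb3 kept its call in 3 and Neurod1 in 2 of the 6 omissions. Neither was called without RARaKO atRA set 2 (limma, adjusted p = 0.0537 and 0.0624). A second Neurod1 probe set was not called, at -0.27. None of 13 fibroblast markers was called in limma, and 1 of them had an unadjusted p under 0.05. The other neural genes were not called, with differences from -0.34 for Elavl3 and Zic1 to 0.17 for Map2, and at an unadjusted limma p under 0.05 the neural list held 4 higher and 7 lower genes. The part of these other cell types in the results was not tested.

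Of the lists for other pathways, cholesterol and fatty acid synthesis held 1 called gene of 28, Hmgcs1, the cytosolic HMG-CoA synthase at an early step of sterol synthesis. Hmgcs1 read -0.80, -0.42 and -0.34 in RARaKO and 0.63, 0.41 and 0.59 in WT, a difference of -1.06 ± 0.12 (limma, adjusted p = 3.84e-04). All 4 of its probe sets were called lower, from -1.07 to -0.99. Other enzymes and the sterol sensors were not called, among them Idi1 (-0.13), Fdft1 (-0.06), Insig1 (-0.30) and Sqle (0.32), with a list median of -0.07. The list's called share was 3.57%, near the 2.74% of all genes, but at an unadjusted limma p under 0.05 it held 8 lower and 1 higher of 28. Of 34 BMP, TGF-beta and Id genes the receptor gene Bmpr2 was higher (0.41 ± 0.08) and Lefty2 was lower. The other Bmpr2 probe sets were not called, each at 0.05. In the 38 DNA methylation, Polycomb and histone modifier genes only Phf19 was called (-0.42 ± 0.10, kept in 1 of the 6 omissions), and of 20 immediate early genes Myc and Fosl1 were lower. Second probe sets of Phf19 (0.04) and Fosl1 (-0.06) were not called. None of 12 housekeeping genes was called in limma, and 1 had an unadjusted p under 0.05.

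The position of called genes was then examined, with the neighbours named here picked after their values were seen. Of 445 called genes with a known position, 49 had a directly adjacent measured gene called in the same direction, in 24 groups. The share of all measured genes with such a neighbour was not counted, so this count does not show clustering. One of these groups held 3 genes, Nnt, Paip1 and 4833420G17Rik on chromosome 13, with differences of -0.31, -0.67 and -0.34. Hmgcs1 lies close by, beyond Tmem267 (-0.30) and Ccl28 (-0.31), which were not called, and the next gene, Zfp131, was at -0.06. On the other side Fgf10 (0.09) and Mrps30 (0.02) were not called. The stretch of lower values from Nnt to Hmgcs1 therefore includes a mitochondrial enzyme gene, a translation regulator and a sterol gene with no shared list. Other neighbours called together were Hoxb2 and Hoxb1, Gm13261 and Sfmbt2, Rhox6 and Rhox9, Nr5a1 and Nr6a1, Myc and Pvt1, Stra8 and Slc23a4, and Gstm2 and Gstm1.

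By chromosome, 31 of 559 genes on chromosome 19 were called (5.55%, 8 higher and 23 lower), and 25 of 531 on chromosome X (4.71%). The lowest share was on chromosome 18, 1.25%, and the share over all genes outside the run was 2.74%. On chromosome 19 the median difference of all genes was -0.07, and 66.9% of its genes were below 0. Over all genes outside the run the median was -0.01. On the other chromosomes the share below 0 ranged from 43.1% (chromosome 12) to 56.4% (chromosome 2). The chromosome 19 median was -0.02, -0.05 and -0.02 in the RARaKO atRA arrays and 0.01, 0.04 and 0.04 in the WT atRA arrays, so the groups did not overlap. The medians of all genes were -0.0029, -0.01 and -0.0018 in RARaKO atRA and -0.0029, 0.009 and 0.0048 in WT atRA. No other chromosome was read by array, so how often such medians lie apart is not known. In vehicle the median difference there was -0.08.

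**Figure D4:**
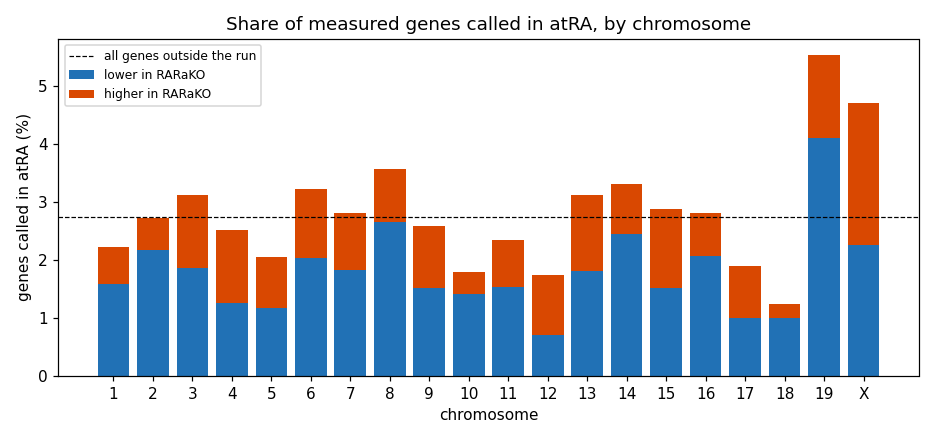
Percent of measured genes on each chromosome called lower (lower part of each bar) and higher (upper part) in RARaKO atRA, without the chromosome 4 run; the dashed line is the 2.74% of all genes. Chromosome 19 has the tallest bar (5.55%), mostly of lower genes, and chromosome X the next (4.71%).

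The RefSeq start regions of called genes, 250 bases before to 50 bases after the start, were searched on both strands for the DR5 repeat and for the same repeat with a spacer of 2 bases (DR2). The half-sites allowed were AGGTCA and its variants AGTTCA as well as GGGTCA and GGTTCA. DR5 was present in 32 of all 32851 promoters (0.0974%) and DR2 in 88 (0.268%). Among the 12895 matched genes outside the run, DR5 was present in 10 (0.0775%) and DR2 in 13 (0.101%). Promoters were matched for 118 of the higher and 233 of the lower genes, and none held either repeat in this window. At such low shares finding none among so few promoters shows nothing about the called genes. The median number of CpG dinucleotides per 100 bases was 5.0 in the higher genes and 7.0 in the lower genes, against 6.33 in all matched genes outside the run.

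Most genes called in atRA had a genotype difference of the same sign without ligand. Of the 446 genes called in atRA, 247 were called in the same direction in vehicle (55.4% of the atRA calls and 57.7% of the 428 vehicle calls, which were 2.63% of genes), and none was called in the opposite direction, also at an unadjusted limma p under 0.05 in vehicle. The sign was the same in vehicle for 440 of the 446. The 2 comparisons share no array but draw on the same variance estimate, and over 16289 genes their differences had a Pearson r of 0.747 and a Spearman rho of 0.598, given as a description across genes, which are not independent. Slc38a4 (2.99), Rpl39l (2.34), Stmn2 (2.15), Gab1 (-2.29), Mest (-2.14) and Tex13b (-1.39) had nearly the same difference in vehicle as in atRA.

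**Figure D5:**
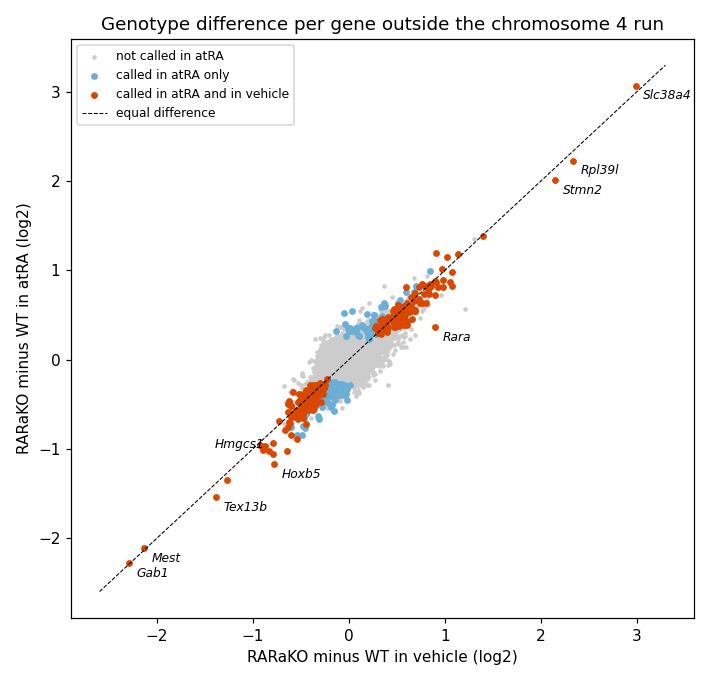
Genotype difference in atRA (vertical axis) against that in vehicle (horizontal axis), both log2, for the 16289 genes outside the chromosome 4 run; orange marks the 247 genes called in both, blue the 199 called in atRA and not in vehicle, and the dashed line equal differences. The largest differences lie close to the line, and Rara (0.36 in atRA, 0.90 in vehicle) lies below it.

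The remaining 199 genes were called in atRA and not in vehicle, but the test of the difference between the conditions called no probe set at all (limma, smallest adjusted p = 1.0), and 1168 of 37600 had an unadjusted p under 0.05. The median standard error was 0.124 for that test and 0.0879 for the comparison in atRA. No gene is therefore shown to differ between the genotypes in atRA alone. Those with the smallest unadjusted p among the atRA calls were Pcdhb5, Rara, Hrg, Ackr1, Spock1 and Gabrg3. Pcdhb5, a protocadherin of the beta cluster, read 0.25, 0.26 and 0.21 in RARaKO atRA and -0.28, -0.11 and -0.09 in WT atRA. Its groups were apart in atRA, by 0.40 ± 0.07, against -0.04 in vehicle (limma, unadjusted p of the change = 8.07e-04). Spock1, a secreted proteoglycan gene, differed by -0.38 ± 0.07 in atRA and -0.04 in vehicle, but a second Spock1 probe set was at 0.01 and -0.22. The differences of Ackr1, an atypical chemokine receptor gene, were 0.35 ± 0.07 in atRA and -0.0043 in vehicle. Rara moved the other way, its difference being 0.36 in atRA and 0.90 in vehicle (limma, unadjusted p of the change = 8.13e-04). Among genes called in vehicle the smallest such p-values were those of Rara, Peg12, Rarb, 2310034O05Rik, Kctd12b and Cxcr4, whose differences in atRA, Rara apart, lay between -0.05 and 0.14.

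A sign of RNA quality was compared between the groups through the 5′ minus 3′ probe set values of Actb, Gapdh, Pcx and Tfrc. Their mean was 0.0605, 0.00122 and 0.0897 in the RARaKO atRA arrays and 0.0178, -0.0248 and -0.0128 in the WT atRA arrays. The groups overlapped in atRA, with RARaKO higher on average. In vehicle they did not overlap, at 0.0733, -0.0227 and 0.132 in RARaKO and -0.0899, -0.123 and -0.0844 in WT. The part of this sign in the differences, in atRA or shared with vehicle, was not tested.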

How the data were processed

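The authors deposited 1 value per probe set and array for 12 arrays, processed with GCRMA per the submitters' processing notes (version not given in the sources used here). The log base is not stated. The deposited values are taken as log2, the scale GCRMA gives, and each probe set was found to be centred on its median over the 12 arrays. Spacing of the printed numbers gave a class of the lost level (at least 8, from 4 to 8, or under 4). All 37600 non-control probe sets (61 controls left out) entered 1 limma 3.58.1 fit in R 4.3.3 with a mean per group, no block, 8 residual and 4.6 prior degrees of freedom, and two-sided p-values adjusted by Benjamini-Hochberg. The contrasts were RARaKO minus WT in atRA, the same in vehicle, and their difference. The fit was tested on simulated data. The number of arrays limits the precision.

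Of the probe sets, 30488 carried 1 gene symbol, 784 several and 6328 none, and only the first were named, for 16509 genes, of which 16385 matched RefSeq. A gene was represented by the probe set with the highest level class, then the least ambiguous type, then the lowest identifier. Of the called genes named by the rule, 31 had several probe sets, all called the same way in 7 of them and a single one called in 18. Genes named with values were, among called genes with non-overlapping groups, the 15 that differed most upward and the 15 that differed most downward, up to 4 called members of each of 22 lists by smallest p, the 6 genes of smallest p for the difference from vehicle among those called in atRA and the 6 among those called in vehicle, and Rara, Rarb, Rarg and Cyp26a1. Other list members complete a count or show members not called, and were chosen after their values were seen. The members and lists were chosen with earlier results of these data known, so the called share of a list is not independent evidence.

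Alternatives were a replicate block, the 6 atRA arrays alone, omission of each array or set, centring, quantile normalization, array weights, a robust prior, a minimum level class and the mean of a gene's probe sets. The 6 atRA arrays with a block were added after the data were seen.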

Additional observations from a re-analysis of the deposited data

How the results depend on the processing

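Among the genes named by the rule, no called direction reversed under any alternative that was run. What changed was how many genes passed. Same-set arrays deviated from their group means with correlations from 0.0186 to 0.497, over 0.1 in 15 of 18 pairs but not in all (0.287, 0.144 and 0.0375 for RARaKO with WT in atRA), against 4 of 36 pairs of different sets. All 12 arrays correlated best with an array of their own set, a hint from the data that the labels do not state, and the samples were not treated as paired. The replicate block (set number in the fit) gave 899 called genes outside the run against 446 without it (339 higher, 560 lower), and 2100 called probe sets against 954 (997 higher, 1103 lower); in vehicle it gave 1732 probe sets against 919, and it lost none of the 77 named calls. With it the Hox genes had 8 lower members against 5, and cholesterol and fatty acid synthesis 5 lower and 1 higher against 1 and 0. Array weights gave 673 genes (460 lower) and 1477 probe sets (927 lower). The 6 atRA arrays alone gave 184 genes (78 higher, 106 lower) and 419 probe sets (192 higher, 227 lower), and kept 54 of the 77 named calls; with a block added, a choice made after seeing the data, 650 probe sets were higher and 60.2% of calls were upward, against 40.7%. Probe sets in the class of at least 8 alone gave 471 lower genes and 27.6% of calls upward, and the mean of a gene's probe sets gave 239 higher genes. Without single arrays the counts ranged from 177 to 420 genes (87 to 173 higher, 90 to 276 lower) and from 367 to 907 probe sets (180 to 489 higher, 187 to 542 lower). The lowest came without WT atRA set 4. Without a whole set they ranged from 91 to 103 genes (38 to 49 higher, 45 to 60 lower) and from 216 to 228 probe sets (93 to 120 higher, 101 to 123 lower), and in vehicle from 130 to 500 probe sets. The difference between the conditions called 0 probe sets under the block and without each set. Centring, quantile normalization and a robust prior each left the number of called probe sets within 1.5 times of 954. Of the 77 named calls, 45 held without each atRA array in turn, and 57 without RARaKO atRA set 2. With 3 arrays per group the smallest called difference was 0.22.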
